A study of Mus musculus with 24 samples.

Results

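The Rcc1 mRNA and its 2 neighbour long intergenic noncoding RNAs (lincRNAs), Snhg3 and Gm17300, were followed across 5 mouse tissues and 3 cell lines, to ask whether the mRNA and the lincRNAs go up and down together. Each was read by 1 probe, so the account rests on 3 of the 60804 transcript probes of the array. The Rcc1 probe (ASMM10P005941) was taken from the study's list of testis-specific mRNAs that are also present in a germ cell-related line, of which 260 probes were read here. The Snhg3 probe (ASMM10P003064, transcript ENSMUST00000155816) and the Gm17300 probe (ASMM10P029644, transcript ENSMUST00000172202) were the lincRNA probes listed beside Rcc1 among 192 testis-specific lincRNAs with a nearby gene. Both lists were made on these same arrays, so a high level in testis against the other tissues is how the members were chosen and is described here without a test. For Rcc1, presence in the lines was part of the choice as well.

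The tissues were brain, heart, kidney, liver and testis of male ICR mice, an outbred stock, at 8 weeks of age, with 3 arrays per tissue. The cell lines, with 3 arrays each, were F9, an embryonal carcinoma line from a mouse teratocarcinoma, GC-1, an immortalized line with features of type B spermatogonia, and GC-2, an immortalized line derived from spermatocytes. F9 was grown without retinoic acid, which would make it differentiate, and cells were taken at passage 3 or 4. No group carried a treatment or a targeted gene. Each line is 1 established culture, and testis is a whole organ holding germ cells and somatic cells. In such bulk RNA, fewer cells of a type and less RNA per cell cannot be told apart.

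Single-color intensities were used as the scanner software gave them, and a probe counted as detected where its spot was flagged well above background. Between 18257 and 37393 probes were detected per array, and the lowest detected signal was 11.0 to 25.3 intensity units. The 75th percentile of the signal over all probes was 305 to 384 on the testis arrays and 30.7 to 154 on the others. Levels are log2 signals minus that percentile, which places testis low relative to the other groups. Of 21 marker genes listed for these tissues and lines, 9 had a probe identified here. Among them, Zfp42, a pluripotency marker, and Stra8, a germ cell gene of the step before meiosis, were detected on all 3 F9 and all 3 testis arrays and on no GC-1, GC-2 or other tissue array. Star, a marker of the steroid-producing Leydig cells, was detected on all 3 testis arrays but also on 7 of 9 line arrays and 2 other tissue arrays. The other 6 were read by noncoding transcripts. Those of Snap25 and Mobp were detected on the 3 brain arrays alone, that of Nrap on the 3 heart arrays alone and Mup-ps12 on the 3 liver arrays alone. Mup-ps18 was detected on the 3 liver arrays, 1 kidney and 1 testis array. The Gap43 transcript, listed for brain, was detected on the 3 brain arrays, 2 heart arrays and all 9 line arrays. Probes were identified through the study's tables, which include lists of tissue-specific transcripts made on these same arrays. Detection in 1 tissue alone may therefore be how a marker came to be identified, and it is not read as a check of the samples.

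RCC1 is the chromatin-bound exchange factor that loads the small GTPase Ran with GTP. The resulting high level of Ran-GTP around chromosomes gives nuclear import and export their direction, and in dividing cells it guides the assembly of the spindle and the nuclear envelope. Snhg3 is a snoRNA host gene, a spliced noncoding transcript whose introns carry Snora73a and Snora73b, which take part in ribosomal RNA processing. Gm17300 is a predicted noncoding transcript with no established role known here. In human, joined transcripts that run from SNHG3 into RCC1 are annotated.

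The 3 transcripts lie within a short stretch of mouse chromosome 4, given here on GRCm38. RefSeq places Rcc1, a protein-coding gene on the minus strand, at chr4:132331919-132345750. The Snhg3 transcript of the array runs on the same strand at chr4:132348014-132353663, and its near end is 2264 bp upstream of the Rcc1 start. The RefSeq Snhg3 gene is shorter, at chr4:132351933-132353686, so that the transcript of the array reaches 3919 bp further towards Rcc1. Gm17300 runs on the plus strand at chr4:132351772-132353382, inside the span of the Snhg3 transcript and opposite to it, and overlaps the RefSeq Snhg3 gene by 1450 bp. Snora73b and Snora73a lie inside that overlap. On the far side the Snhg3 transcript ends 2259 bp short of Phactr4. The positions at which the probes sit within their transcripts were not given in the sources used here, so the isoforms that each probe reads are not known.

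**Figure D1:**
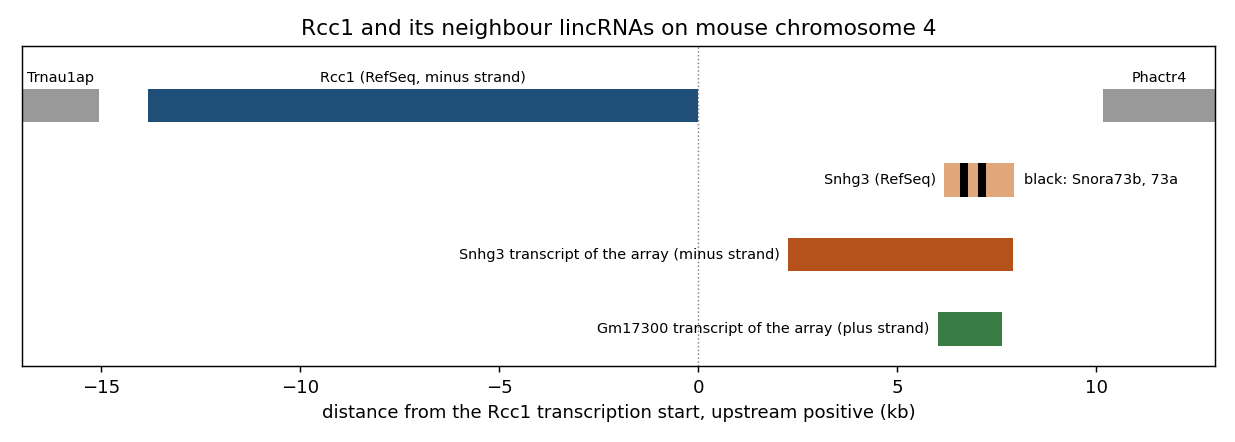
Map of Rcc1 and its neighbours on chromosome 4, with the distance from the RefSeq start of Rcc1 on the x axis in kb, positive upstream. Bars are gene or transcript spans without exon structure. The Snhg3 transcript of the array comes within 2264 bp of the Rcc1 start and holds the whole of Gm17300 on the other strand.

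RefSeq gives a promoter window, 250 bases before to 50 after the start, for Rcc1 and for Snhg3, whose starts are 7936 bp apart. The windows are printed because both genes are read from the same strand from separate starts. The Rcc1 window is chr4:132345701-132346000 and the Snhg3 window is chr4:132353637-132353936, both minus strand. Capitals mark matches on either strand to the TATA box (TATAAA), the CAAT box (CCAAT), the GC box (GGGCGG), the cyclic AMP element (TGACGTCA) and the E-box (CACGTG), none of which contains another.
Rcc1: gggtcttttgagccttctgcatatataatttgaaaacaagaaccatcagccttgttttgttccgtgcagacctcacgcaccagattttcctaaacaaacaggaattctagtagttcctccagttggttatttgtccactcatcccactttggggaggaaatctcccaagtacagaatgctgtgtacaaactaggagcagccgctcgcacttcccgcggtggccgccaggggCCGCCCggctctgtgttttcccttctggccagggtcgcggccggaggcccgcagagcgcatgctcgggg
Snhg3: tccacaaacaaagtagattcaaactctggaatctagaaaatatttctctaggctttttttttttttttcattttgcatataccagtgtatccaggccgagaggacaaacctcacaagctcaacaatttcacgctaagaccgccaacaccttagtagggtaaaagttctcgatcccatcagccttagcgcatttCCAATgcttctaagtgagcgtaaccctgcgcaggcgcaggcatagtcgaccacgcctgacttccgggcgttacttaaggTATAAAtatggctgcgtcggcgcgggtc
The Rcc1 window held 1 match, to GGGCGG on the reverse strand, a motif present in 35.7% of the 32851 promoter windows. The Snhg3 window held 1 match to CCAAT, present in 37.4% of windows, and 1 match to TATAAA, present in 13.6%. The TATAAA letters begin 22 bases after the RefSeq start. Neither window held TGACGTCA (1.79% of windows) or CACGTG (7.15%), and the windows had no motif of the search in common. GC content was 54.3% for Rcc1 and 46.0% for Snhg3, against a median of 52.7% over all windows. The windows held 15 and 16 CpG dinucleotides, against a median of 7.

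In testis all 3 transcripts gave strong signals. The Rcc1 signals were 1226, 1602 and 2003 on testis replicates 1, 2 and 3. The Snhg3 signals were 879, 866 and 1065 on the same arrays. The Gm17300 signals were 495, 348 and 372. Replicate 3 gave the highest signal for Rcc1 and Snhg3 and replicate 1 for Gm17300.

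In brain, heart, kidney and liver none of the members was detected on any of the 12 arrays. The Rcc1 signal there ranged from 2.62 to 11.8 with a median of 5.81. The Snhg3 signal ranged from 2.49 to 12.3 with a median of 4.10. The Gm17300 signal ranged from 2.71 to 6.07 with a median of 2.98. These ranges do not overlap those of testis. Taking the lowest detected signal of each array as the limit, Rcc1 was at least 51.7-fold higher in testis than in brain, 30.0-fold than in heart, 30.2-fold than in kidney and 11.3-fold than in liver. The corresponding bounds were 6.68-fold in liver to 30.6-fold in brain for Snhg3. For Gm17300 they were 2.87-fold in liver to 13.1-fold in brain. Liver gave the weakest bound for each member, since its arrays were the dimmest and 1 of them had the highest detection limit, 25.3.

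A looser flag, which asks that a spot be positive and significant against its local background, was set for Rcc1 on 11 of the 12 arrays of these tissues, for Snhg3 on 8 and for Gm17300 on 2. Detection on all 3 testis arrays and on no other tissue array, the pattern behind the choice of members, was shared by 4420 probes, or 7.27% of the array. Of these, 3392 (76.7%) were detected on no cell line array, as Gm17300 was. Another 109 (2.47%) were detected on all 9, as Rcc1 was. Snhg3, with 1 line array, fell among the 919 between. Presence in a line was part of the choice of Rcc1, so its place in this split is not read as a result.

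**Figure D2:**
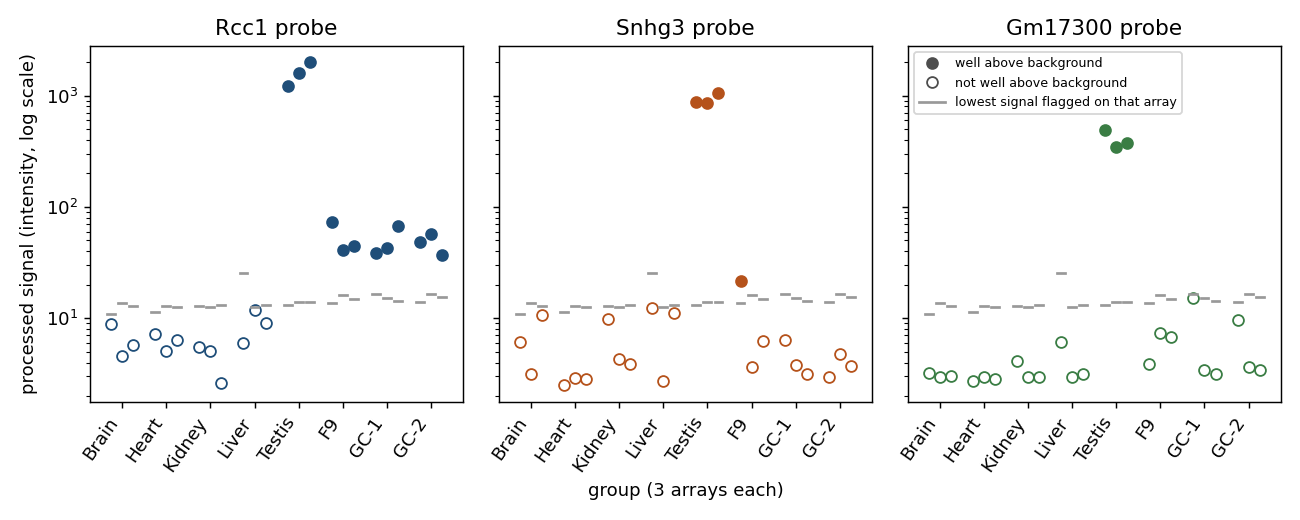
Processed signal (log scale) of the 3 probes on all 24 arrays, by group. Filled points were well above background, open points were not, and grey ticks give the lowest detected signal of that array. All 3 probes stand out in testis, and Rcc1 alone also lies above the ticks on all 9 cell line arrays.

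In the cell lines Rcc1 was detected on all 9 arrays, Snhg3 on 1 and Gm17300 on none. The looser flag was set on 9, 6 and 5 of these 9 arrays in the same order, Gm17300 having it on all 3 of F9. The Rcc1 signals of replicates 1 to 3 were 73.8, 40.7 and 44.2 for F9, 38.4, 43.1 and 67.5 for GC-1, and 47.9, 56.7 and 37.2 for GC-2. The 3 lines overlapped, all of them lay above the other tissues and below testis, and the lowest testis signal was 16.6 times the highest line signal. The Snhg3 signals were 21.8, 3.65 and 6.24 for F9, 6.41, 3.83 and 3.14 for GC-1, and 2.96, 4.79 and 3.75 for GC-2. Only F9 replicate 1 was detected, and the other 8 arrays were in the range of brain, heart, kidney and liver. The Gm17300 signals were 3.89, 7.35 and 6.83 for F9, 15.3, 3.39 and 3.17 for GC-1, and 9.65, 3.68 and 3.45 for GC-2. Replicate 1 of GC-1 and of GC-2 were the highest for Gm17300, and neither reached detection.

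The size of the drop from testis to each line was not part of the choice of members and was tested, with the caution that the testis arrays also served the choice. limma was fitted over all 60804 probes with Benjamini-Hochberg adjustment, and a probe was called where it differed by at least 5-fold with an adjusted p of 0.05 or less. On this rule 11.2% of all probes were called lower than testis in the F9 contrast, 11.9% in that of GC-1 and 12.4% in that of GC-2. All 3 members were called lower in each of the 3 lines. The members were chosen for high testis values on the same arrays, which largely sets a drop in advance, so these percentages are not what members without a change would give and nothing is read from the count. The adjusted p of the members against testis carry the same limit.

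Rcc1, the exchange factor mRNA, was 7.19-fold lower in F9 than in testis (log2 difference -2.85, SE 0.39, n = 3 arrays each; limma adjusted p = 1.31e-06). It was 10.7-fold lower in GC-1 (log2 difference -3.42, adjusted p = 1.26e-07) and 12.0-fold lower in GC-2 (log2 difference -3.59, adjusted p = 5.86e-08). Within 2 standard errors the drop was 4.18- to 12.4-fold in F9 and 6.99- to 20.7-fold in GC-2. These folds are relative to the 75th percentile, on which the median of all probes was 1.35 to 1.63 higher (log2) in the lines than in testis. Scaled to the 75th percentile of the probes detected on all 24 arrays, which left that median within 0.19 of 0, the Rcc1 differences were -4.44, -4.89 and -5.13 for F9, GC-1 and GC-2.

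For the lincRNAs, only bounds could be given where a line was not detected. The adjusted p belong to the fitted differences, which use the undetected signals, and do not test the bounds. Snhg3, the snoRNA host, was at least 19.9-fold lower in GC-1 than in testis (log2 means -4.71 and 1.45; limma adjusted p = 4.84e-10) and at least 21.7-fold lower in GC-2 (mean -5.01; adjusted p = 2.14e-10). In F9, where 1 of 3 arrays was detected, the fitted log2 difference was -4.78 (SE 0.50, adjusted p = 2.70e-08), and the bound was at least 12.5-fold. Without F9 replicate 1, the detected array, the difference was -5.30. Gm17300, the transcript of the opposite strand, was at least 6.25-fold lower in F9, 8.55-fold in GC-1 and 9.31-fold in GC-2 (log2 means -3.78, -4.34 and -4.61, against 0.23 in testis), with adjusted p of 6.13e-08, 7.96e-09 and 3.17e-09. After a background correction that adds an offset of 50 and so compresses dim signals, the Gm17300 differences were -1.24, -1.53 and -1.63, under the 5-fold limit.

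Testis and the lines shared a slide for replicate 1 only, which allows values within the slide but no test. There the Rcc1 differences from testis were -2.18 for F9, -3.45 for GC-1 and -3.28 for GC-2. The Snhg3 differences were -3.47, -5.55 and -6.82 in the same order. The Gm17300 differences were -5.12, -3.47 and -4.29. With the slide as a block over all arrays, the 9 differences kept their calls, and those of Rcc1 were -2.86, -3.43 and -3.60.

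**Figure D3:**
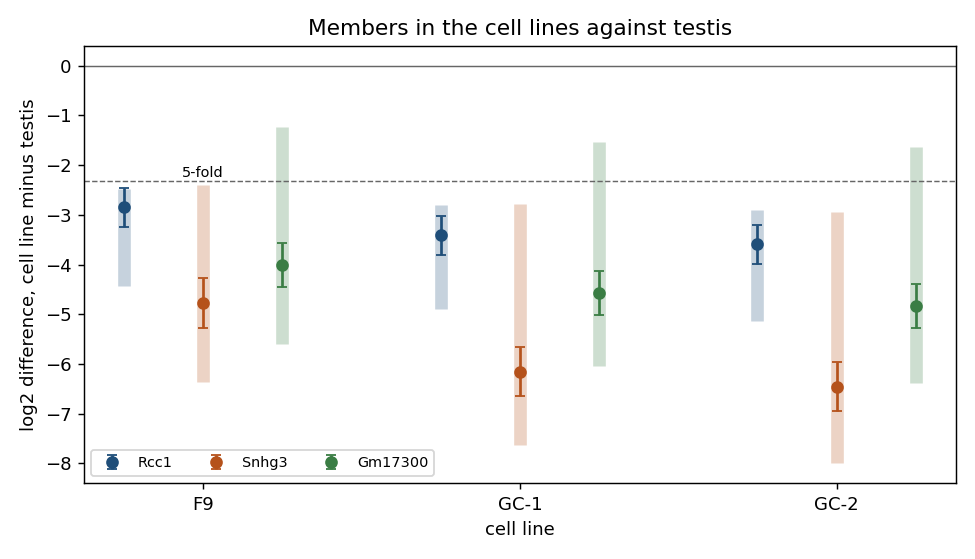
Log2 difference of each member between a cell line and testis (points, with standard errors; n = 3 arrays per group). Pale bars span the values over the other normalizations and fits, and the dashed line marks 5-fold. All 9 points lie under the dashed line, and the pale bars of Gm17300 cross it.

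Between the lines, no difference in Rcc1 passed the test. The rule called 7.19% of all probes between F9 and GC-1, 7.01% between F9 and GC-2 and 3.39% between GC-2 and GC-1. Rcc1 differed by 0.57 (log2; 2 standard errors either side, -0.22 to 1.35) between F9 and GC-1, with a limma adjusted p of 0.320. F9 exceeded GC-2 by 0.74 (-0.04 to 1.53, adjusted p = 0.165). GC-2 minus GC-1 was -0.17 (-0.96 to 0.61, adjusted p = 0.917). A difference of up to about the upper bounds is therefore not excluded by these arrays. On slide 1 the F9 array exceeded GC-1 by 1.26 and GC-2 by 1.1, and on slide 3, with 2 arrays per line, by 0.22 and 0.56. The order of the Rcc1 levels was testis (2.21 ± 0.47, SD), F9 (-0.64 ± 0.17), GC-1 (-1.21 ± 0.62) and GC-2 (-1.38 ± 0.40), with the other tissues below detection. The mean of F9 lay within 1 SD of GC-1 by the SD of GC-1 but not by its own, and GC-1 and GC-2 lay within each other's SD. The lincRNAs allow no fold between lines, since both sides of each pair were below detection on at least 2 of 3 arrays. Fitted on these signals, Snhg3 in F9 exceeded GC-1 by 1.38 (log2, limma adjusted p = 0.047) and GC-2 by 1.69 (adjusted p = 0.015). Both were under 5-fold and not called, and the F9 mean holds its 1 detected array. The remaining lincRNA differences between lines did not pass the adjusted p.

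The drops of Snhg3 and Rcc1 can be set side by side within each array, where the scaling cancels. Rcc1 was chosen for presence in the lines and Snhg3 was not, so the comparison is a description with no test, and it was made after the values were seen. On the testis arrays the log2 ratio of Rcc1 to Snhg3 was 0.48 to 0.91. If that mean ratio had held in the lines, the Rcc1 signals there would have gone with Snhg3 signals of 22.0 to 43.6, above the lowest detected signal on all 9 line arrays. The measured Snhg3 signals were 2.96 to 21.8, below that value on all 9. With Snhg3 raised to the lowest detected signal wherever it was dimmer, the ratio was still above that of testis by 0.79 (log2) for F9, 0.90 for GC-1 and 0.85 for GC-2, with no overlap of the arrays. After the correction with the offset of 50 the shift was -0.06, -0.02 and 0.04, so its size depends on how dim signals are treated. That offset compresses the dimmer probe more, so equal drops need not give 0 on that scale.

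For Gm17300 such a comparison is limited by detection. At the testis ratio its signal in the lines would have been 9.44 to 18.7, above the lowest detected signal on only 2 of 9 arrays. With the floor, the shift in the ratio of Rcc1 to Gm17300 was -0.20 for F9, -0.32 for GC-1 and -0.37 for GC-2. The measured Gm17300 signals, 3.17 to 15.3, lay below the value at the testis ratio on 8 of 9 arrays, GC-1 replicate 1 being the exception.

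**Figure D4:**
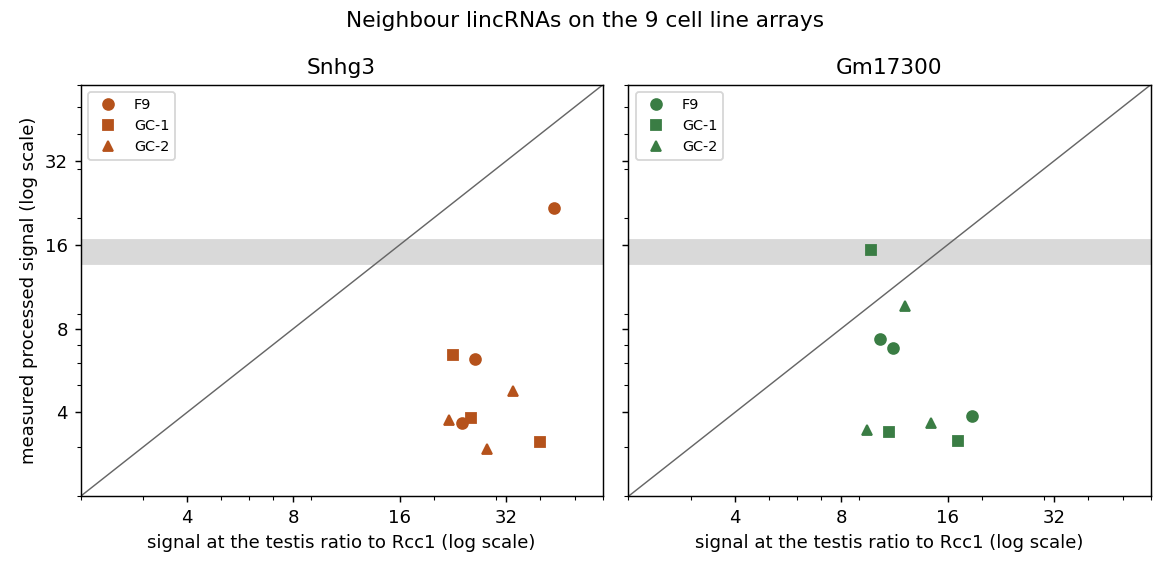
Measured signal of each lincRNA on the 9 cell line arrays (y axis, log scale) against the signal it would have if its mean testis ratio to Rcc1 had held (x axis, log scale). The line marks equality and the grey band the lowest detected signals of these arrays, 13.7 to 16.6. Snhg3 would have been above the band on all 9 arrays and lay below the line on all 9, while most expected Gm17300 signals fall within or under the band.

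Within groups, the correlation of the members depended on how dim signals were treated. Over the 24 deviations from group means, Pearson's r between Rcc1 and Snhg3 was -0.05, and between Rcc1 and Gm17300 it was -0.36. Over the 21 arrays other than testis, r was 0.13 for Snhg3 and 0.45 for Gm17300. These are descriptions, since arrays of a group share their source and most lincRNA values are below detection. Over the same 21 arrays the Snhg3 and Gm17300 levels had r of -0.57 and -0.60 with the 75th percentile used to scale each array, against -0.16 for Rcc1. With undetected signals set to the lowest detected signal of their array, the within-group r became 0.81 for Snhg3 and 0.53 for Gm17300, values that then follow the array's own floor. After the correction with the offset of 50 it was 0.80 and 0.07. Measured in this way neither a shared nor a separate variation of the lincRNAs can be read below detection.

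At 3 other loci a listed testis lincRNA had its listed neighbour among the mRNA probes read here, and they serve as a comparison. These mRNAs were listed by the same rule as Rcc1, so presence in a line was part of their choice. At Cbfb, the partner subunit of the RUNX transcription factors, the mRNA was detected on all 9 line arrays and the lincRNA AK052254 on 1. That split in detection was also seen at Rcc1, but the mRNA levels differed. The Cbfb mRNA had log2 levels of -0.76 in testis and -0.05, 0.03 and 0.37 in F9, GC-1 and GC-2. It was thus not lower in the lines, as Rcc1 was, and it was detected on 4 arrays of other tissues. At Trim71, a stem cell RNA-binding ubiquitin ligase, the mRNA and the lincRNA BU515331 were detected on all 3 F9 arrays and on no GC-1 or GC-2 array. Their log2 levels in F9 were 6.49 and 2.71, against -0.52 and -1.83 in testis. At Zfp951, a zinc finger gene, the mRNA and the lincRNA AK138930 were detected on all 3 F9 arrays, and on the GC-2 arrays the mRNA alone, with 3 of 3. Over the 7 group means without testis, r between mRNA and lincRNA was 0.96 at Trim71, 0.78 at Zfp951 and -0.29 at Cbfb, and 0.18 for Snhg3 and 0.67 for Gm17300 at Rcc1. Outside testis, BU515331 was detected in F9 alone and Gm17300 on no array. These r therefore rest largely on undetected lincRNA signals and are descriptions. Detection of the lincRNA with its mRNA on all 3 arrays of a line was thus seen at Trim71 and Zfp951, both in F9, while Snhg3 and AK052254 were each detected on 1 line array.

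**Figure D5:**
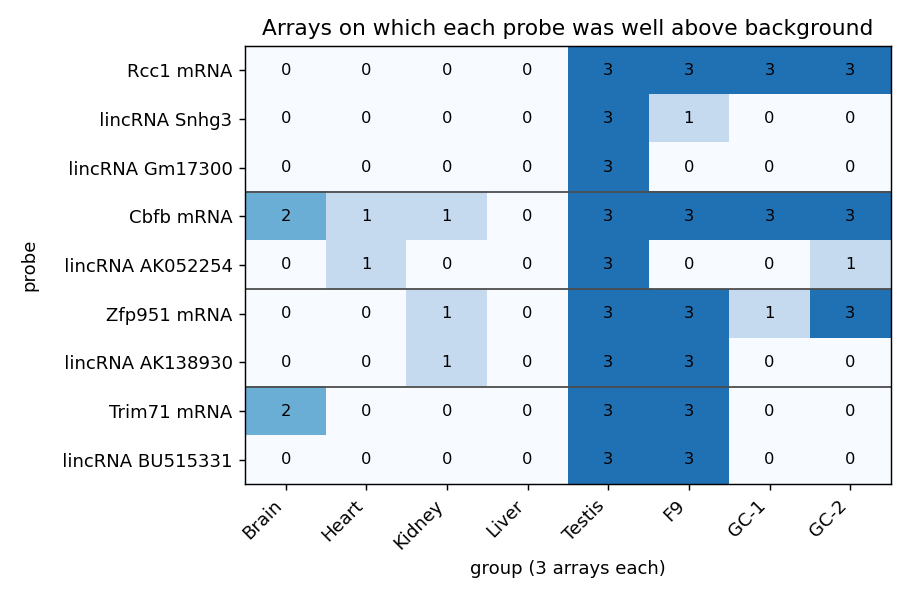
Number of arrays, of 3 per group, on which each mRNA and its neighbour lincRNA were well above background, for Rcc1 and the 3 other loci. In the lines the Rcc1 and Cbfb mRNAs have 3 of 3 throughout while their lincRNAs have at most 1, and the Trim71 pair has 3 of 3 in F9 for both.

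Other genes of the Ran cycle and of nuclear transport were read where the tables used here identify a probe, which was the case for 11 probes of 10 genes. Against testis, 1 of the 11 was called lower in F9 and 2 in each GC line. Of all probes, 11.2%, 11.9% and 12.4% were called lower in F9, GC-1 and GC-2. In the same order 4, 2 and 2 of the 11 were called higher, where 20.0%, 17.4% and 16.7% of all probes were called higher. With scaling to the probes detected on all 24 arrays, 2974, 3029 and 2797 of all probes were called higher, in place of 12162, 10609 and 10133. The median difference of the 11 was -0.28, -1.24 and -0.45 (log2), beside 1.63, 1.43 and 1.35 over all probes. Of the 11, 6 had been listed as testis-specific on these same arrays, which lowers their differences in advance. Nothing is therefore read about the group from this median or from the counts. Nup210l, a testis-enriched relative of the pore membrane protein gp210, was lower in all 3 lines, with log2 differences of -8.51 for F9, -5.62 for GC-1 and -6.71 for GC-2. Nup62cl, a relative of the central channel nucleoporin Nup62, was higher in F9 (3.11) and lower in GC-1 (-5.65) and GC-2 (-5.80). Nup210l was detected on no F9 array and Nup62cl on no GC-1 or GC-2 array. The fitted sizes of those drops use undetected signals. Probes for noncoding transcripts of Ndc1 (4.48, 3.52 and 4.24) and Nup214 (3.72, 3.63 and 2.45), which encode pore proteins, were higher in all 3 lines. A noncoding Ipo8 probe was called higher in F9 (3.51), although it was detected on no testis array and on 1 of 3 F9 arrays. Of the 8 higher calls of this list, 2 stayed at 5-fold or more under each of the 5 other sets of normalized values.

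All 6 mRNA probes among the 11 had been listed by the same rule as Rcc1. Nup210l and Nup62cl, described above, are among them, and both had larger fitted drops than Rcc1 in the GC lines, as Nup210l did in F9. Of these, only the Nup210l drops in the GC lines rest on detected signals. The others were those of Nup205 and Nup98, pore proteins, of Nup214, and of Xpo6, the actin exporter, and none of these 4 was called lower in a line. Their differences from testis in F9 were -0.39, -0.13, -0.29 and -0.28 (log2), beside -2.85 for Rcc1. In GC-1 they were -0.88, -1.03, -1.24 and -1.28, beside -3.42. Over the sets of normalized values the lowest GC-1 differences of these 4 were -2.35, -2.50, -2.71 and -2.76, each past 5-fold. The lowest for Rcc1 was -4.89. In F9 and GC-2 the 4 stayed under 5-fold in each set. Noncoding probes of Ipo13 and of Rangrf, the latter a Ran-binding release factor, were not called either. The Rangrf differences from testis were -0.62 for F9, -1.61 for GC-1 and -2.15 for GC-2.

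Snhg3 was chosen for its tissue pattern, so the other snoRNA host probes identified here are set beside it as a description. Of 13 probes for Gas5, Snhg1, Snhg6, Snhg11 and Dancr, 11 were detected on all 24 arrays, and 1 had its highest mean in testis. That probe reads the Gas5 transcript ENSMUST00000159706 and was detected on all 3 testis arrays, on no other tissue array and on 7 of 9 line arrays, while the other 8 Gas5 probes were detected on all 24. Its level was 1.37 in testis and -4.37 to -3.50 in the other tissues. That is the pattern behind the testis-specific lists, which may be how this probe came to be identified here. No second Snhg3 probe was identified here, so whether other transcripts of the gene follow this one was not tested. Against testis, 11, 9 and 8 of the 13 were called higher in F9, GC-1 and GC-2 and the same Gas5 probe lower in each, with median differences of 3.39, 3.15 and 3.98 over the 13. Over all probes, 20.0%, 17.4% and 16.7% were called higher and the medians were 1.63, 1.43 and 1.35. Since 9 of the 13 probes read Gas5, the counts are mostly those of 1 gene. The Snhg11 probe, among those called higher in F9, was detected on 1 F9 array and on no testis array. Of the 28 higher calls, 14 stayed at 5-fold or more under each of the 5 other sets of normalized values, 5 of 11 for F9, 2 of 9 for GC-1 and 7 of 8 for GC-2.

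The pattern of Rcc1 was then compared with 1879 identified probes that were detected on all testis and all line arrays. By Pearson's r over the 24 arrays the closest were Skp2 (0.97), a noncoding transcript of Nfatc2ip (0.96), the lncRNA 4933407H18Rik (0.93), Gm581 (0.92) and Gm4763 (0.92). Skp2, a substrate receptor of the ubiquitin ligase that removes cell cycle inhibitors, had levels of 3.35 in testis, 0.34 in F9, -1.31 in the GC-1 line and -0.80 in the GC-2 line, and was detected in no other tissue. The Nfatc2ip transcript had 4.29 in testis and 0.41, -1.55 and -0.89 in F9, GC-1 and GC-2. By the same measure 3860 of the other 60803 probes were closer to Rcc1 than Snhg3 was, and 689 were closer than Gm17300 was. The testis arrays weigh heavily in this ranking, and the members were chosen for high testis values. Most lincRNA values outside testis were undetected, so no relation between the members is read from it.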

How the data were processed

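RNA of 24 samples was hybridized in one color (Cy3) to Arraystar mouse lncRNA arrays. The members and the gene lists were chosen with earlier results of these data known. Per the file headers, the deposited intensity values come from Feature Extraction 11.5.1.1, with 62243 spots per array, background-subtracted by the software. The flags for spots well above background, or positive and significant, were taken from the same files, as were the median and background intensity. The deposited matrix holds the same processed intensity values without normalization between arrays (largest relative difference 0.000228). The authors normalized with GeneSpring GX, which was not repeated. The methods name an RNeasy kit for RNA and the labels Trizol, and the methods describe 3 biological replicates.

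The log2 processed signal minus the 75th percentile over the 60804 transcript probes of each array was fitted with limma 3.58.1 (R 4.3.3; lmFit and eBayes, 8 group means, all 24 arrays), with Benjamini-Hochberg adjustment over all probes. The fit was tested on simulated data. Other values were computed with Python 3.11.15, numpy 2.4.6, pandas 2.3.3 and scipy 1.17.1. A fold against an undetected group was bounded by taking, on each array, the higher of the lowest detected signal and the probe's own. The number of arrays limits the precision. Deviations from the group means of arrays with the same replicate number were correlated between groups. Their r was 0.11 to 0.20 between F9 and GC-1 and 0.13 to 0.29 between GC-1 and GC-2, all over 0.1. Between heart and F9 it was 0.15 to 0.29. The replicate 1 arrays share a slide, and heart and the lines share slides for each replicate number. A pairing of samples and a shared slide cannot be told apart here, and the labels give replicate numbers only. Genes named were the members, all identified probes of the fixed lists, the neighbour pairs and the 5 probes most like Rcc1. Probe names and listed positions came from the study's supplementary tables, as far as read here. Starts listed there were 1 below those of RefSeq for 42 of 46 shared transcripts, and 1 was added. Promoters and genes came from RefSeq (GRCm38.p6). No pseudocount was used.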

Additional observations from a re-analysis of the deposited data

How the results depend on the processing

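The 12 differences (3 members between each line and testis, and Rcc1 between lines) were recomputed under 10 other settings and with each array left out, 192 values in all, of which 189 kept their direction and their side of the rule, or stayed uncalled. The exceptions were the Gm17300 differences after normexp background correction with an offset of 50, -1.24 for F9, -1.53 for GC-1 and -1.63 for GC-2 against testis, which were still past the adjusted p but under 5-fold. The correction was run on the median signal, an alternative chosen after seeing the data, since the planned version on the mean signal could not be run on the files used here. Leaving out single arrays moved the Rcc1 differences from testis between -3.11 and -2.67 for F9, -3.75 and -3.13 for GC-1, and -3.86 and -3.41 for GC-2, and that between GC-2 and GC-1, not called in any setting, between -0.46 and 0.16. Replicate numbers gave 84 pairs of arrays between groups, whose deviations had r of -0.14 to 0.29 (33 over 0.1). With the replicate number as a block the Rcc1 differences from testis stayed at -2.85, -3.42 and -3.59, those between lines at 0.57, 0.74 and -0.17 (limma adjusted p = 0.280, 0.140 and 0.895), and none of the 12 calls changed. The number of probes called lower than testis was 6832, 7223 and 7567 for F9, GC-1 and GC-2, against 3494, 3692 and 3798 after normexp and 11663, 11619 and 12237 with scaling to probes detected on all arrays. With scaling to the median of the detected probes it was 11163 for F9. The number called higher was 12162, 10609 and 10133, against 2974, 3029 and 2797 with scaling to common probes, 3270, 4025 and 4034 with the median of the detected probes and 3988, 4048 and 4135 after normexp, and for F9 also 7119 after quantile normalization and 20779 without F9 replicate 1. Of all calls against testis, 36.0%, 40.5% and 42.8% were lower, against 79.7%, 79.3% and 81.4% with that scaling to common probes, 77.3%, 72.0% and 72.5% with the median of the detected probes and 51.0%, 50.7% and 50.6% after quantile normalization. Between the lines normexp left 1258, 1281 and 545 calls, against 4372, 4262 and 2063, and the methods' t-test gave 1237 between GC-2 and GC-1. The correlations of Rcc1 with the lincRNAs moved by over 0.1 in 22 of 58 values, Rcc1 and Snhg3 within groups from -0.34 after quantile normalization to 0.81 with the floor. The detection limit of 11.0 to 25.3 intensity units restricts what can be said of the lincRNAs outside testis.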
